A study of Drosophila melanogaster with 20 samples.

Results

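The starch-digesting enzymes of the fly gut were followed here through 10 genes of Drosophila melanogaster, the alpha-amylases Amy-p and Amy-d, the maltases Mal-A1, Mal-A2, Mal-A3, Mal-A4, Mal-A6, Mal-A7 and Mal-A8, and the maltase Mal-B1. They were taken by gene name from a table of 17276 genes, and their m6A peaks were taken by gene ID from 5 peak lists. All 10 names were found in the table. RNA came from whole adult flies 1 to 2 days old, in 5 groups of 2 preparations, each divided into an m6A immunoprecipitation (IP) library and an input library. The groups were yw females, yw males, and males of the mutants Mettl3SK2/Df, Mettl14SK1 and Hakai4. yw was the control strain and carries the yellow and white markers. Mettl3SK2 was carried over a chromosomal deficiency (Df) that removes Mettl3, and its files bear the older gene name Ime4. Mettl14SK1 is a Mettl14 allele, and Hakai4 was read as the HakaiSH4 frameshift allele of the methods. No mutant females were sequenced, so genotype was compared in males only and sex in yw only. The mutants are whole-body, and whether they share the genetic background of the yw flies was not given in the sources used here.

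Alpha-amylase is secreted into the gut lumen and cuts starch and glycogen into maltose and short glucose chains. Maltases are alpha-glucosidases that release glucose from these products, which is then taken up by midgut enterocytes. In Drosophila dietary sugar represses amylase and several maltase genes, and insulin and activin-type signals take part in the response to sugar. m6A is a methyl mark on adenosines of mRNA. In flies it is deposited by a nuclear writer complex in which Mettl3 is the catalytic subunit, Mettl14 its partner in binding RNA, and Hakai, a RING-finger protein, is an associated subunit.

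The genes lie in 3 places. Amy-p (FBgn0000079) occupies chr2R:17118636-17120303 on the minus strand and Amy-d (FBgn0000078) chr2R:17124764-17126369 on the plus strand, so that the pair is transcribed apart from each other. The Mal-A genes form a cluster, from Mal-A1 (FBgn0002570, chr2R:8449664-8451904, minus strand) through Mal-A2 (FBgn0002569, chr2R:8453627-8455782, plus), Mal-A3 (FBgn0002571, chr2R:8455909-8457892, minus), Mal-A4 (FBgn0033294, chr2R:8458815-8460884, plus), Mal-A6 (FBgn0050360, chr2R:8465158-8467595, plus) and Mal-A7 (FBgn0033296, chr2R:8468646-8471663, minus) to Mal-A8 (FBgn0033297, chr2R:8471954-8473961, plus). Mal-B1 (FBgn0032381) stands on another chromosome arm, at chr2L:11847226-11849169 on the plus strand. All 10 spans had the same start and end in the RefSeq annotation of genome Release 6. Amy-p and Amy-d are near-identical copies, so reads can be split between them in a way that depends on the counting, and their levels are given both singly and summed.

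Expression was deposited as FPKM, in which fragments are scaled to the length of the transcript and to the mapped total of the library, for the 10 input libraries. The depth of each library is unknown, because the values carry no counts. Where the labels give 2 libraries a group, nothing says that they came from separate cultures of flies, so p-values measure only the spread between these libraries. Each mutated gene was lower in its own mutant, with Mettl3 at 2.26 ± 0.24 FPKM against 5.20 ± 0.04 in yw males (SD, n = 2 per group), Mettl14 at 1.9 ± 0.17 against 4.22 ± 0.05, and Hakai at 0.99 ± 0.32 against 2.91 ± 0.63. The labels of sex were matched by 7 ovary genes, which summed to 1140 to 1209 FPKM in females and to at most 3.32 in any male library, and by 7 testis genes, which summed to at most 3.60 FPKM in females and at least 1506 in males. Midgut proteases and lipases (27 genes, 25 tested) were well expressed in these whole flies, at a summed 974 to 1366 FPKM in yw males, but whole-fly RNA cannot show in which tissue a given transcript was made. In all that follows, fewer cells of a type and less RNA per cell cannot be told apart.

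In yw males the members spanned a wide range, and no neighbours in the order of level had overlapping libraries. Mal-A1 was highest at 151.3 ± 14.3 FPKM (SD, n = 2), followed by Amy-p at 133.8 ± 9.2, Mal-A6 at 62.6 ± 5.0 and Mal-A8 at 36.9 ± 0.3. Mal-A7 (21.3), Mal-A2 (19.7), Amy-d (18.6), Mal-A3 (15.2) and Mal-A4 (11.4) lay close together. Mal-B1 came last at 0.57 ± 0.30 FPKM, with 1.01% of the tested genes below it. Tested genes had a mean of at least 1 FPKM, so genes at this level were left out unless higher in other libraries. The share is small for that reason. Together the 10 genes made up 0.0788% and 0.0844% of all FPKM in the yw male libraries, and between 0.0788% and 0.136% over all 10 libraries.

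**Figure D1:**
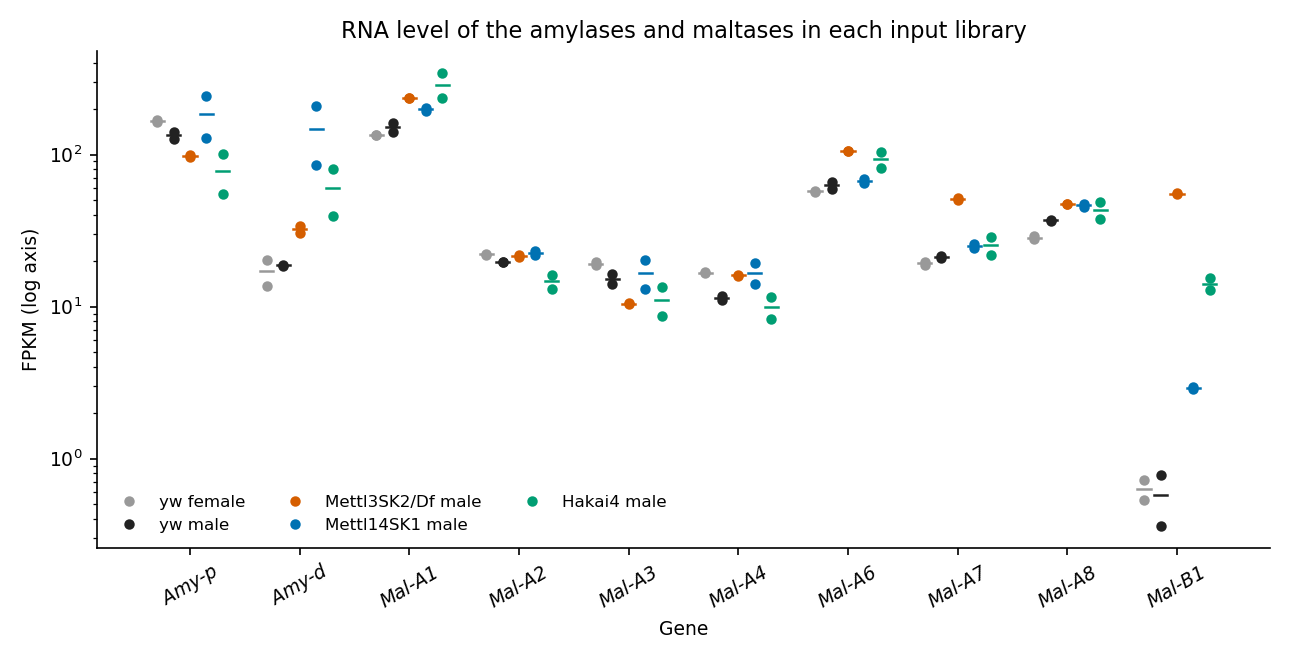
FPKM (log axis) of each of the 10 genes in the 10 input libraries. Points are libraries, short bars are group means and colours are the 5 groups; Mal-B1 lies below 1 FPKM in all 4 yw libraries and at 54.8 and 55.5 FPKM in the Mettl3 mutant.

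To find out which of these genes differed in the mutants of the m6A writer complex, each mutant was compared with yw males in a fit of limma over all 8 male input libraries. Values were log2(FPKM + 1), so that fold changes of low genes are understated, and p-values were adjusted by Benjamini-Hochberg over 13079 genes. A gene is said to rise or fall where the adjusted p was under 0.05. The comparisons share the same 2 yw libraries, so they are not independent of one another. The fit took the same spread for a gene in every group. Replicates correlated at r = 0.994 in the Mettl3 mutant, and at 0.978 to 0.980 in the other male groups. The SE of a comparison thus also rests on groups outside it. In the Mettl3 mutant 3 of 10 members rose (Mal-B1, Mal-A7 and Mal-A6) and none fell, where 5.77% of all tested genes rose and 3.01% fell. In the Mettl14 mutant 2 rose (Amy-d and Mal-B1) and none fell, against 6.58% and 2.48% of all genes. In the Hakai mutant 2 rose (Mal-B1 and Mal-A1) and none fell, against 4.95% and 3.75%. Beside these calls of limma, 6, 3 and 5 members had an unadjusted p under 0.05 in either direction, where 26.2%, 24.2% and 20.6% of all tested genes did. By the looser rule of the study's methods, an unadjusted p under 0.05 with at least a 2-fold change, 2 members were higher in each mutant and none was lower, beside 2.94%, 3.4% and 2.47% of all genes higher and 1.32%, 1.23% and 1.72% lower. Mal-B1 was the member that rose in all 3.

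Mal-B1 gave the widest differences of the set. Its level was 0.363 and 0.784 FPKM in the yw male libraries and 0.720 and 0.537 FPKM in the yw female libraries. It stood at 55.5 and 54.8 FPKM in the Mettl3 mutant, at 15.5 and 12.8 in the Hakai mutant and at 2.95 and 2.86 in the Mettl14 mutant. Every mutant library was above every yw library, and the 3 mutants did not overlap one another. The ratio of mean FPKM to yw males was 96.1 in the Mettl3 mutant, 24.7 in the Hakai mutant and 5.07 in the Mettl14 mutant. The fit kept genes with a mean of at least 1 FPKM over the male libraries. Mal-B1 met this filter only through the mutants, so its entry into the test was not independent of the result. On the log2(FPKM + 1) scale Mal-B1 rose by 5.17 (SE 0.15, adjusted p = 0.00016) in the Mettl3 mutant, by 3.28 (SE 0.15, adjusted p = 0.00013) in the Hakai mutant and by 1.32 (SE 0.15, adjusted p = 0.0036) in the Mettl14 mutant by limma. Without yw male replicate 1 these were 4.98, 3.08 and 1.13, and without yw male replicate 2 they were 5.36, 3.47 and 1.52, all still past the threshold.

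The mutants were also compared with each other. Mal-B1 was 19.0-fold lower in the Mettl14 than in the Mettl3 mutant (log2 -3.85, SE 0.15, limma adjusted p = 9.9e-05). It was 3.89-fold lower in the Hakai than in the Mettl3 mutant (log2 -1.89, adjusted p = 0.0013) and 4.87-fold higher in the Hakai than in the Mettl14 mutant (log2 1.95, adjusted p = 0.0016). The order of the mutants for this gene was therefore Mettl3, Hakai, Mettl14, and each step exceeded the spread between libraries.

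The genes around Mal-B1 did not share this rise. Of 17 other genes within 20 kb, 16 were tested, and none rose in any of the 3 mutants, with limma log2 fold changes no higher than 1.03, 0.65 and 1.41 in the Mettl3, Mettl14 and Hakai mutants. In the Hakai mutant 2 of them fell, Sfp33A2, a seminal fluid gene (7.37 against 13.9 FPKM, log2 -0.84, adjusted p = 0.018), and lncRNA:CR43937 (3.97 against 9.41 FPKM, log2 -1.07, adjusted p = 0.0075). Mal-B1 lies on the same arm as Mettl14 and Hakai, at 3.54 and 7.73 Mb from them, and on another chromosome than Mettl3. Mal-B2, the other Mal-B maltase and one of these neighbours at 789 bases from Mal-B1, was at 12.6 ± 3.0 FPKM in yw males, 14.3 ± 0.4 in the Mettl3 mutant, 20.8 ± 7.4 in the Mettl14 mutant and 20.4 ± 2.1 in the Hakai mutant (SD, n = 2 each). None of the 3 differences of Mal-B2 passed (limma adjusted p = 0.67, 0.18 and 0.20).

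**Figure D2:**
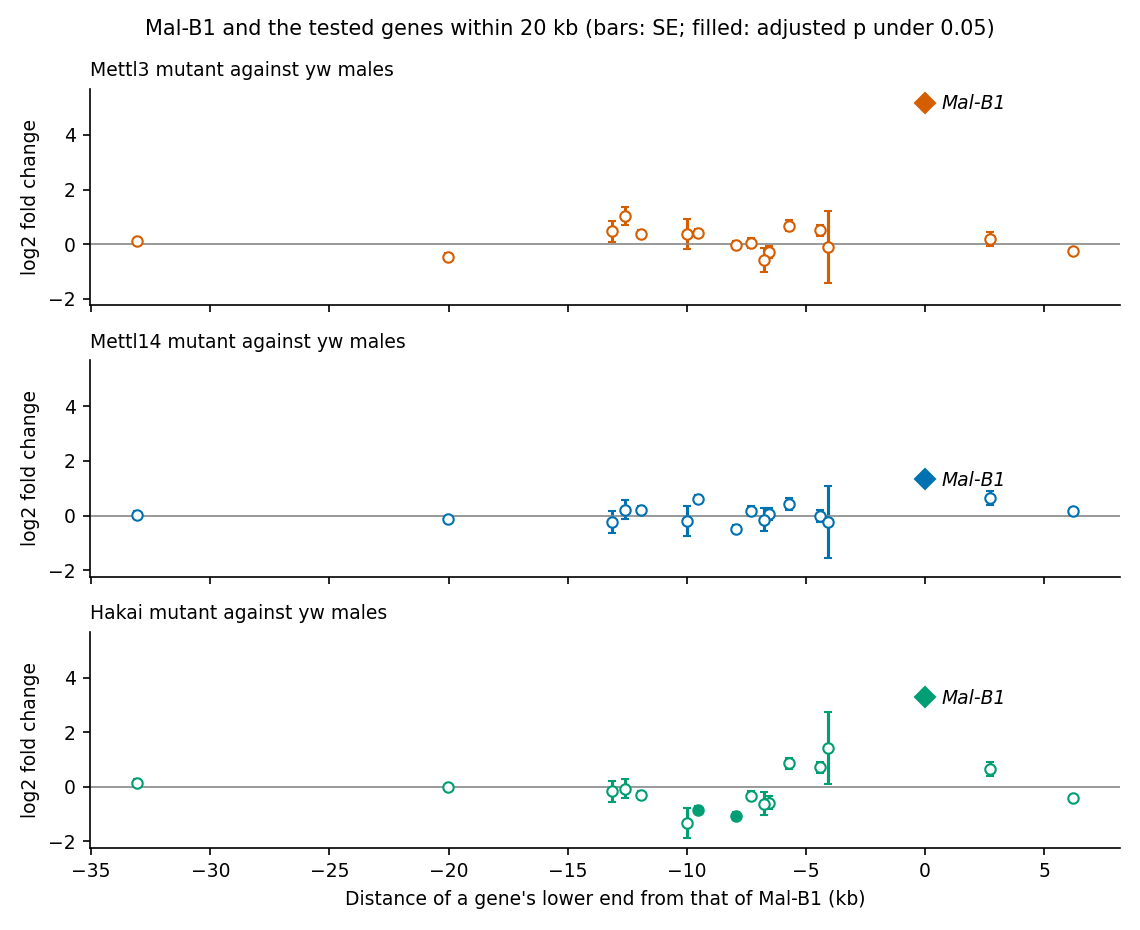
log2 fold change of FPKM + 1 (bars are the SE of the limma fit) of Mal-B1 and of 16 tested genes within 20 kb, against the distance between the lower end of each gene and that of Mal-B1, in kb. Mal-B1 (diamond) is at 5.17, 1.32 and 3.28 in the 3 panels, and the filled circles in the Hakai panel are the 2 genes that fell.

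The division of FPKM between the amylase copies was not the same in yw males, the Mettl3 mutant and the other mutants, and it was not tested. Amy-d was at 18.7 and 18.6 FPKM in yw males, 30.7 and 33.7 in the Mettl3 mutant, 85.8 and 208.6 in the Mettl14 mutant, and 39.5 and 80.6 in the Hakai mutant. All mutant libraries were above both yw male libraries, with a wide gap between the replicates of the Mettl14 and Hakai mutants. Amy-p was at 127.3 and 140.3 FPKM in yw males, 95.7 and 99.5 in the Mettl3 mutant, 128.3 and 241.5 in the Mettl14 mutant, and 54.6 and 101.3 in the Hakai mutant. It was below yw males in the Mettl3 and Hakai libraries and overlapped them in the Mettl14 mutant.

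Amy-d rose in the Mettl14 mutant, by 2.78 on the log2(FPKM + 1) scale (SE 0.46, limma adjusted p = 0.015). In the Hakai mutant its log2 fold change was 1.55 (SE 0.46, adjusted p = 0.11) and in the Mettl3 mutant 0.76 (SE 0.46, adjusted p = 0.35). Amy-p passed in no mutant, with -0.45 (SE 0.36, adjusted p = 0.47) in Mettl3, 0.40 (adjusted p = 0.56) in Mettl14 and -0.84 (adjusted p = 0.27) in Hakai by limma. The call of Amy-d in the Mettl14 mutant was lost without yw male replicate 1 (adjusted p = 0.065) or without yw male replicate 2 (adjusted p = 0.077), with the fold change at 2.78 in both. Without Mettl14SK1 replicate 2, the library with the highest level, it was 2.14. Amy-d also differed between the Mettl14 and Mettl3 mutants, by 2.02 (SE 0.46, limma adjusted p = 0.042), a call lost without Mettl3SK2/Df replicate 1 (1.96, adjusted p = 0.21) or 2 (2.09, adjusted p = 0.18) and without Mettl14SK1 replicate 2 (1.39, adjusted p = 0.15).

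Summed, the pair reached 145.9 and 158.9 FPKM in yw males, 126.4 and 133.3 in the Mettl3 mutant, 214.1 and 450.1 in the Mettl14 mutant, and 94.1 and 181.9 in the Hakai mutant. Both Mettl14 libraries were above both yw male libraries. None of these sums differed past the threshold by limma, with log2 fold changes of -0.23 (SE 0.41, adjusted p = 0.76), 1.02 (adjusted p = 0.19, unadjusted p = 0.043) and -0.22 (adjusted p = 0.86). In the Mettl14 mutant the sum thus met the looser rule of the study's methods but not the adjusted one. The share of Amy-d in the sum was 12.8% and 11.7% in yw males and 11.1% and 7.55% in yw females. It was 24.3% and 25.3% in the Mettl3 mutant, 40.1% and 46.4% in the Mettl14 mutant, and 42.0% and 44.3% in the Hakai mutant. The lowest share in a mutant library, 24.3%, was above the highest in a yw library, 12.8%, while the Mettl14 and Hakai ranges overlapped. With 2 libraries against 2, an exact permutation test cannot go below p = 0.333 (two-sided), so the shares are given without a test. The division of reads between near-identical copies is uncertain, and the shares are those of the table.

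**Figure D3:**
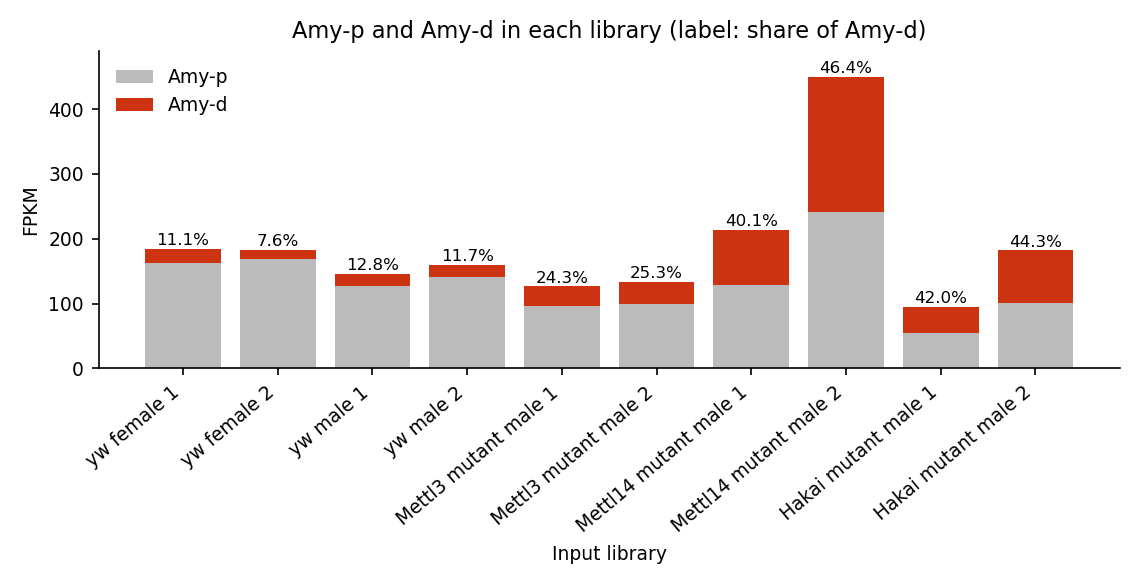
FPKM of Amy-p (grey) and Amy-d (red), stacked from 0, in each of the 10 input libraries, with the share of Amy-d above each bar in percent. The share lies between 7.55% and 12.8% in the yw libraries and between 24.3% and 46.4% in the mutant libraries.

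Around the amylases, 18 other genes of the table lay within 20 kb, of which 16 were tested. Acp54A1, an accessory gland gene, rose in the Mettl3 (log2 2.56, limma adjusted p = 0.021), Mettl14 (3.95, adjusted p = 0.0036) and Hakai (2.70, adjusted p = 0.016) mutants. CG11400 fell in the Mettl14 (-0.56, adjusted p = 0.012) and Hakai (-0.48, adjusted p = 0.021) mutants. The others that passed were Gbp2 in the Mettl3 mutant (0.53), CR44391 in the Mettl14 mutant (1.08) and snoRNA:U3:54Aa in the Mettl14 (1.21) and Hakai (1.11) mutants.

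Among the Mal-A maltases, Mal-A7 and Mal-A6 rose in the Mettl3 mutant. Mal-A7 was at 20.9 and 21.6 FPKM in yw males, 51.5 and 50.2 in the Mettl3 mutant, 24.4 and 25.7 in the Mettl14 mutant, and 21.9 and 28.6 in the Hakai mutant. The Mettl3 libraries stood apart from all others. Its log2 fold change in the Mettl3 mutant was 1.22 (SE 0.13, limma adjusted p = 0.0036), and without Mettl3SK2/Df replicate 1 it was 1.2 with an adjusted p of 0.051. Mal-A7 was 0.22 in the Mettl14 mutant (adjusted p = 0.36) and 0.23 in the Hakai mutant (adjusted p = 0.43), and it was lower in both than in the Mettl3 mutant, by -0.99 (adjusted p = 0.0070) and -0.99 (adjusted p = 0.0072). Those calls of difference were lost without Mettl3SK2/Df replicate 1 (-0.97 in each, adjusted p = 0.074 and 0.078) or replicate 2 (-1.01 in each, adjusted p = 0.066 and 0.067).

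Mal-A6 was at 59.1 and 66.2 FPKM in yw males, 106.0 and 105.1 in the Mettl3 mutant, 65.2 and 69.4 in the Mettl14 mutant, and 81.6 and 104.0 in the Hakai mutant. The Mettl3 and Hakai libraries were above both yw libraries, and the Mettl14 libraries overlapped them. It rose by 0.75 (SE 0.14, limma adjusted p = 0.024) in the Mettl3 mutant, where leaving out any one of the 4 libraries compared ended the call (0.67, 0.83, 0.74 and 0.75 without yw male 1, yw male 2, Mettl3SK2/Df 1 and Mettl3SK2/Df 2, adjusted p = 0.078, 0.069, 0.18 and 0.17). In the Hakai mutant it was 0.55 (adjusted p = 0.064) and in the Mettl14 mutant 0.10 (adjusted p = 0.70). Mal-A6 was lower in the Mettl14 than in the Mettl3 mutant by -0.64 (adjusted p = 0.036), a call that was lost on leaving out any of those 4 libraries, at -0.64 and -0.65 without Mettl3SK2/Df 1 and 2 (adjusted p = 0.22 and 0.21), and -0.60 and -0.69 without Mettl14SK1 1 and 2 (adjusted p = 0.12 and 0.13).

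Mal-A1, the most abundant maltase, was at 141.2 and 161.4 FPKM in yw males, 234.5 and 233.6 in the Mettl3 mutant, 193.3 and 203.0 in the Mettl14 mutant, and 234.9 and 341.6 in the Hakai mutant. All 6 mutant libraries were above both yw male libraries. It rose in the Hakai mutant, by 0.90 (SE 0.19, limma adjusted p = 0.033). The call was lost without yw male replicate 1 (0.81, adjusted p = 0.13), yw male replicate 2 (1.00, adjusted p = 0.083) or Hakai4 replicate 2 (0.63, adjusted p = 0.075), and in a fit of those 4 libraries alone (adjusted p = 0.17). In the Mettl3 mutant Mal-A1 was 0.63 (SE 0.19, adjusted p = 0.092) and in the Mettl14 mutant 0.39 (adjusted p = 0.27).

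The other maltases of the cluster passed in no comparison of a mutant with yw males. Mal-A8 was higher than yw males in every mutant library, at 36.6 and 37.1 FPKM in yw males and between 37.5 and 49.0 in the mutants, with log2 fold changes of 0.35, 0.32 and 0.21 (limma adjusted p = 0.16, 0.21 and 0.46). Mal-A4 was at 0.46, 0.50 and -0.20 (adjusted p = 0.18, 0.16 and 0.66), and Mal-A3 at -0.50, 0.10 and -0.45 (adjusted p = 0.26, 0.85 and 0.39), in the Mettl3, Mettl14 and Hakai mutants. Mal-A2 was lowest in the Hakai mutant. It was at 19.6 and 19.7 FPKM in yw males, 21.2 and 22.0 in the Mettl3 mutant, 23.1 and 22.0 in the Mettl14 mutant, and 13.1 and 16.2 in the Hakai mutant, below all other libraries. Mal-A2 was lower in the Hakai than in the Mettl14 mutant (-0.60, SE 0.11, adjusted p = 0.031) and than in the Mettl3 mutant (-0.54, adjusted p = 0.034). The first was lost without Mettl14SK1 1 (-0.56, adjusted p = 0.15), Mettl14SK1 2 (-0.63, adjusted p = 0.12) or Hakai4 1 (-0.46, adjusted p = 0.097), and the second without Mettl3SK2/Df 1 (-0.56, adjusted p = 0.19), Mettl3SK2/Df 2 (-0.51, adjusted p = 0.21) or Hakai4 1 (-0.40, adjusted p = 0.076). Summed over 7 genes, the Mal-A maltases reached 303.3 to 333.4 FPKM in yw males, 484.4 to 487.2 in the Mettl3 mutant, 378.5 to 407.1 in the Mettl14 mutant and 406.1 to 564.4 in the Hakai mutant.

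Mal-A5, a maltase of the same cluster that lies 66 bases from the nearest of these genes, went the other way in the Mettl3 mutant. It was at 37.9 and 40.3 FPKM in yw males and 21.6 and 22.6 in the Mettl3 mutant, and fell by 0.80 on the log2 scale (SE 0.14, limma adjusted p = 0.018). It was -0.27 in the Mettl14 mutant (adjusted p = 0.29) and -0.42 in the Hakai mutant (adjusted p = 0.14). Cyp4e1, a cytochrome P450 gene on the plus strand whose 3′ end overlaps that of Mal-A1, rose in the Mettl14 (0.86, adjusted p = 0.0026) and Hakai (0.59, adjusted p = 0.012) mutants. Cyp4ad1, another P450 gene near the cluster, rose in all 3 mutants (0.79, 1.26 and 0.71, adjusted p = 0.010, 0.0013 and 0.014). Whether the table used read strand was not given in the sources used here, so reads from the shared end of Mal-A1 and Cyp4e1 may not be separated.

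Across the members as a set, the median log2 fold change was 0.54 in the Mettl3 mutant, 0.36 in the Mettl14 mutant and 0.22 in the Hakai mutant, beside 0.03, 0.11 and 0.03 over all tested genes. In the Mettl3 mutant 8 members had both libraries above yw males and 2 had both below, where 36.3% and 29.2% of all genes did. In the Mettl14 mutant 7 were above and 3 overlapped (36.7% of all genes above and 13% below), and in the Hakai mutant 6 were above, 3 below and 1 overlapped (23.3% and 18.2%). In comparisons between mutants, 4 members changed between Mettl14 and Mettl3 (1 higher and 3 lower, where 6.51% and 4.08% of all genes did), 3 were lower and none higher in Hakai than in Mettl3 (6.83% and 4.69%), and 1 was higher and 1 lower in Hakai than in Mettl14 (1.93% and 4.56%).

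**Figure D4:**
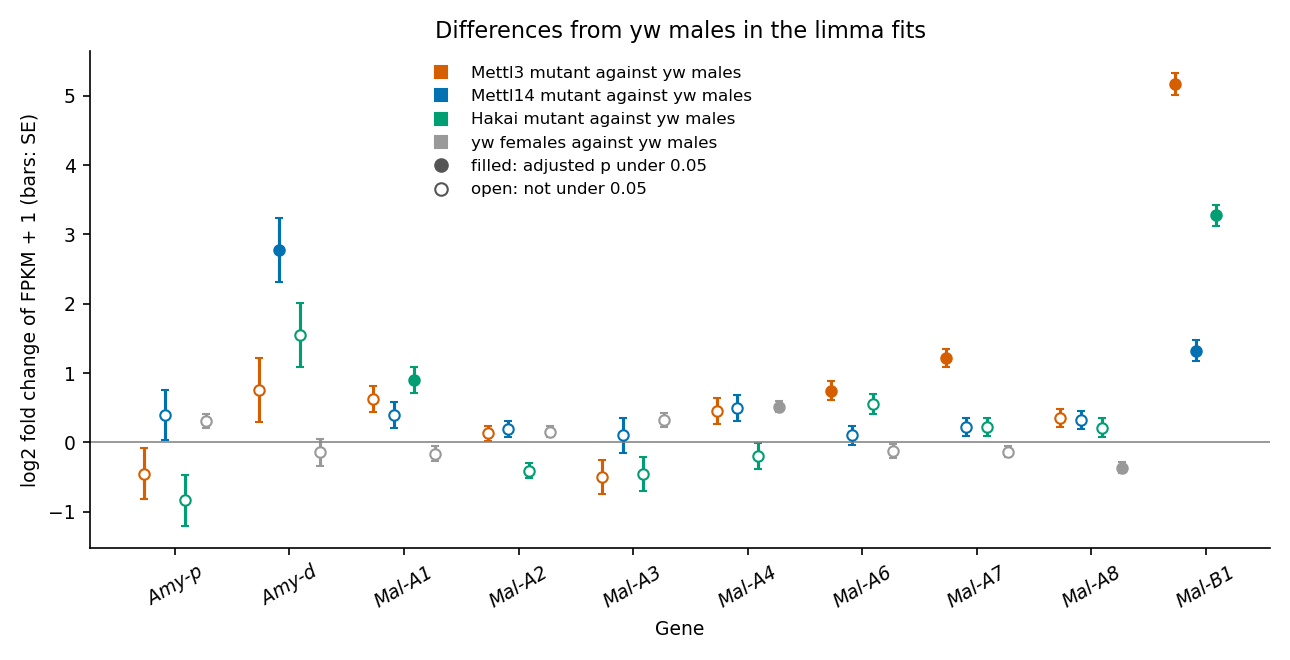
log2 fold change of FPKM + 1 (y axis, bars are the SE of the limma fit) for each of the 10 genes (x axis) in the 3 mutants and in yw females, all against yw males. Filled points passed an adjusted p of 0.05; Mal-B1 reaches 5.17 in the Mettl3 mutant, and Mal-B1 was not tested between the sexes.

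Sex was compared in the 4 yw input libraries over 12778 genes. The female input and IP libraries were numbered apart from all male libraries in the deposit. Whether they were also prepared or sequenced apart was not given in the sources used here. Differences between yw females and males may therefore include such a difference. Of 9 members tested, 1 was higher in females (Mal-A4) and 1 was lower (Mal-A8), where 27.4% of all genes were higher and 31.4% lower. Mal-B1 was below the expression filter in this fit. Mal-A4 was at 16.7 and 16.8 FPKM in females against 11.7 and 11.1 in males (log2 0.52, SE 0.08, limma adjusted p = 0.0058). Mal-A8 was at 29.0 and 27.9 FPKM in females against 36.6 and 37.1 in males (log2 -0.36, SE 0.08, adjusted p = 0.018). Amy-p was at 163.2 and 168.3 FPKM in females against 127.3 and 140.3 in males, but did not pass (0.31, adjusted p = 0.056), and neither did Mal-A3 (0.32, adjusted p = 0.054). Both calls were lost without yw female replicate 1 (Mal-A4 0.52, adjusted p = 0.093, and Mal-A8 -0.39, adjusted p = 0.22) or replicate 2 (Mal-A4 0.51, adjusted p = 0.099, and Mal-A8 -0.34, adjusted p = 0.28). The median gene was at 7.21 and 7.22 FPKM in females and at 9.75 in both male libraries, and setting all libraries to equal medians shifted their log2 values by -0.20 to 0.18. At equal medians Mal-A8 was 0.0090, Mal-A1, Mal-A6, Mal-A7 and Amy-d were also above 0, and Amy-p (0.68, adjusted p = 0.0044), Mal-A2 (0.53) and Mal-A3 (0.69) passed, so the direction of the sex difference rests on the scaling for 4 of the 7 Mal-A maltases.

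The other genes of sugar digestion and its control were set beside the members. Among 12 other genes of carbohydrate digestion and sugar transport, 11 were tested in males, of which 1 rose and 2 fell in the Mettl3 mutant and 1 rose in each of the others, with medians of -0.15, -0.04 and -0.06. The gene that rose each time was tobi (target of brain insulin), an alpha-glucosidase known to respond to diet. tobi was at 0.80 and 0.98 FPKM in yw males, 4.24 and 3.78 in the Mettl3 mutant, 12.5 and 12.5 in the Mettl14 mutant, and 83.0 and 103.0 in the Hakai mutant. Its log2 fold changes were 1.41, 2.84 and 5.63 (SE 0.13, limma adjusted p = 0.0018, 0.00011 and 1.3e-05). tobi was thus highest in the Hakai mutant, whereas Mal-B1 was highest in the Mettl3 mutant. Like Mal-B1, tobi met the filter of a mean of at least 1 FPKM only through the mutants. The genes that fell in the Mettl3 mutant were Mal-A5 and the sugar transporter gene sut4 (44.3 against 61.9 FPKM, -0.47, adjusted p = 0.028). Neither fall was called without yw male replicate 2, Mettl3SK2/Df replicate 1 or Mettl3SK2/Df replicate 2, where 1 gene of the list still rose and 0 fell. The amylase-related gene Amyrel was at or below 1.17 FPKM in every library and was not tested in males.

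Of 17 genes of sugar, insulin and activin signalling, 2 rose in the Mettl3 mutant, 1 in the Mettl14 mutant and none in the Hakai mutant, and none fell. Thor, the fly 4E-BP translation inhibitor and a target of FOXO, rose in the Mettl3 mutant from 258.8 to 595.7 FPKM (log2 1.2, SE 0.12, limma adjusted p = 0.0024). The lipase gene Lip4 rose there from 9.40 to 22.1 FPKM (1.17, adjusted p = 0.012). daw, which encodes the activin-type ligand dawdle, rose in the Mettl14 mutant from 3.54 to 6.73 FPKM (0.78, adjusted p = 0.019).

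Other gut enzymes differed between the mutants in a way the members did not follow throughout. Of 25 tested midgut proteases and lipases, 16 rose and none fell in the Mettl14 mutant (median 1.41), 5 rose and 3 fell in the Mettl3 mutant (median -0.37), and 4 rose and 6 fell in the Hakai mutant (median -0.31). In the Mettl14 mutant 9, 8 and 10 changed without yw male replicate 1, yw male replicate 2 and Mettl14SK1 replicate 2, and in the Mettl3 mutant 2, 1 and 1 changed without yw male replicate 2, Mettl3SK2/Df replicate 1 and Mettl3SK2/Df replicate 2, against 8 in all. Their summed level was 974 to 1366 FPKM in yw males, 877 to 884 in the Mettl3 mutant, 2569 to 4806 in the Mettl14 mutant, 444 to 773 in the Hakai mutant and 2384 to 2445 in yw females. This sum was highest in the Mettl14 mutant, as was the amylase sum, and for both sums the library with the highest level was Mettl14SK1 replicate 2. The widest changes were in trypsin genes of the Hakai mutant, betaTry (0.57 against 142.6 FPKM, log2 -6.45) and epsilonTry (0.13 against 32.4 FPKM, -4.88), and in chymotrypsin-like genes of the Mettl14 mutant, Jon99Ciii (4.48) and Jon99Cii (4.42), all with adjusted p at or below 0.00091 by limma. Among 16 other midgut genes, 1, 1 and 1 rose and 3, 3 and 5 fell in the Mettl3, Mettl14 and Hakai mutants. PGRP-SC2, an amidase that degrades bacterial peptidoglycan, fell in each (-2.04, -2.32 and -1.94), as did PGRP-SC1a (-1.80, -3.10 and -3.90), a near-identical copy of PGRP-SC1b whose reads may be shared with it.

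Markers of other tissues were read in the same libraries, since whole flies hold them all. The fat body list (6 genes) summed to 225.8 to 277.1 FPKM in yw males, 546.5 to 553.2 in the Mettl3 mutant, 395.7 to 403.7 in the Mettl14 mutant and 659.1 to 714.3 in the Hakai mutant, with 2, 1 and 3 genes risen. Fbp1 was 3.22 higher in the Hakai mutant. Lsp2, a larval serum protein gene, was 2.32 higher in the Mettl3 and 3.11 higher in the Hakai mutant on the log2 scale, and apolpp was 1.63 higher in the Mettl3 and 1.42 higher in the Mettl14 mutant. Flight muscle genes (4) summed to 8531 to 11717 FPKM in yw males and 4596 to 4669 in the Mettl3 mutant, where Act88F (-1.35) and TpnC4 (-0.73) fell. Accessory gland genes (9) summed to 3167 to 6392 FPKM in yw males, 8581 to 8738 in the Mettl3 mutant, 6621 to 10646 in the Mettl14 mutant and 4096 to 5699 in the Hakai mutant, and SP, the sex peptide gene, rose in the Mettl3 (1.75) and Mettl14 (1.67) mutants. None of 7 eye genes passed in a mutant. No gene of the fat body, flight muscle, accessory gland or eye lists was under 0.1 FPKM in yw males. The summed fat body level was thus higher than in yw males in all 3 mutants, as was Mal-B1, with another order of the mutants. The fat body sum was also higher in yw females, at 373.0 to 399.8 FPKM with 3 genes risen, where Mal-B1 was at 0.720 and 0.537 FPKM. The part of any tissue in the results for the members was not tested.

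The genes whose profile over the 8 male libraries was nearest to that of a member were sought for the most abundant gene of each class, by the root mean square difference of centred log2(FPKM + 1). For Amy-p they were lectin-46Ca (0.16), lectin-46Cb (0.16) and CG7953 (0.16), where the SD of Amy-p itself was 0.60. The lectins are seminal fluid genes, at 0.53 and 0.66 FPKM in yw females, where Amy-p was at 165.8. For Mal-A1 (SD 0.39) they were CG44008 (0.11), regucalcin (0.13) and CG15369 (0.13). For Mal-B1 (SD 2.10) no gene came close, and the nearest were CG31606 (0.92), lncRNA:CR45633 (0.92) and CG14957 (0.93). CG31606 was at 3.38 FPKM in yw males, 28.5 in the Mettl3 mutant, 5.35 in the Mettl14 mutant and 13.1 in the Hakai mutant, the same order of groups as Mal-B1. As CG31606 was picked for its likeness over these same libraries, the shared order is not a separate result.

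The IP libraries were read through the deposited m6A peaks. Each list was called from both replicates of a group together and is 1 result, so differences between lists are described without a test. In every list 9 of the 10 members had at least 1 peak, beside 64.3% (yw females), 70.8% (yw males), 75.3% (Mettl3), 68.3% (Mettl14) and 69.1% (Hakai) of 13123 genes with a mean of at least 1 FPKM. Mal-A2 had no peak in any list. Peaks assigned to the members numbered 15, 13, 13, 12 and 15 in the same order, of which 10, 10, 12, 11 and 13 were annotated to the 3′ UTR, beside 48.1%, 56.6%, 61.1%, 63.4% and 61.7% of all peaks. Their median fold enrichment of IP over input was 2.38, 2.81, 2.45, 2.65 and 2.67, against 2.48, 3.06, 2.53, 2.79 and 2.89 over all peaks of each list.

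Some of these assignments lay wholly or partly outside the gene itself. Wide peaks annotated to the 5′ UTR of Mal-B1, with a fold enrichment of 11.3 in yw females, 5.79 in yw males, 2.45 in the Mettl3 mutant and 1.98 in the Hakai mutant, and with none so annotated in the Mettl14 list, had 0% of their bases within Mal-B1. Their outer ends lay 20478 to 35833 bases apart, and all their parts were within the span of Pde1c, a phosphodiesterase gene on the opposite strand that covers the locus. Similarly, peaks ending at chr2R:8449745 and assigned to Mal-A1 shared 82 bases with Mal-A1, the rest lying in Cyp4e1, and peaks starting at chr2R:8473956 shared only 6 bases with Mal-A8, with the rest in mtt. Counting only peaks with at least 50% of their bases inside the member, a rule added after these were seen, 13, 10, 11, 10 and 13 peaks remained, still in 9 members in each list.

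Within the genes, most peaks were annotated to the 3′ UTR. Over the 5 lists 49 peaks were so annotated, and their midpoints lay a median of 184 bases from the gene's 3′ end (7 to 934). This nearness partly follows from the annotation. Peaks in other exons numbered 3 (yw females), 2 (yw males), 0 (Mettl3), 1 (Mettl14) and 1 (Hakai), at 217 to 1368 bases from the 3′ end. A Mal-A1 peak in yw females (fold enrichment 1.44) was annotated to the 5′ UTR, at 2210 bases from the 3′ end. Amy-p had its peak against the gene's end at chr2R:17118636 in all 5 lists, and the peak reached to 17118963 or 17118904. Its fold enrichment was 2.38 in yw females, 3.17 in yw males, 2.69 in the Mettl3 mutant, 2.71 in the Mettl14 mutant and 2.97 in the Hakai mutant. Amy-d had its peak at the same place in its own gene, with 2.58, 2.12, 2.02, 1.69 and 2.43. The highest peak of both amylases was thus lower in each mutant list than in the yw male list, except for Amy-d in the Hakai list.

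For the maltases, the highest peak within the gene was lower in all 3 mutant lists than in the yw male list for Mal-A3 (4.61 in yw males, then 2.97, 2.58 and 2.95 in the Mettl3, Mettl14 and Hakai lists), Mal-A4 (2.81, then 2.04, 1.66 and 1.89) and Mal-A8 (4.03, then 3.04, 2.57 and 2.67). In the yw female list the same genes were also below yw males, at 2.64, 1.56 and 2.58. The median over all peaks was likewise highest in the yw male list, at 3.06, beside 2.48 in yw females and 2.53, 2.79 and 2.89 in the mutants. The highest peak was higher in all 3 mutant lists than in the yw male list for Mal-A1 (2.53, then 3.66, 2.87 and 3.35). In every list this Mal-A1 peak also covered bases shared with Cyp4e1. For Mal-A7 the peak nearest to that of yw males (3.09) had 2.29, 3.15 and 2.90 in the Mettl3, Mettl14 and Hakai lists. Nearer to the 3′ end, the Mettl3 and Hakai lists held a further Mal-A7 peak each, of 3.65 (FDR 0.017) and 5.60 (FDR 0.042). Mal-A6 was at 4.23 in yw males and at 3.19, 3.63 and 4.43 in the mutants. Mal-A7 in yw females had the highest value of any peak within a member, 8.92. Mal-A3, Mal-A4 and Mal-A8, with lower peak values in the mutant lists, did not pass the expression test in any mutant. Other members had a lower peak value in a mutant where their RNA rose. These were Amy-d in the Mettl14 list (1.69, beside 2.12 in yw males) and Mal-A6 in the Mettl3 list (3.19, beside 4.23). A link between peak values and RNA level was not tested.

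Mal-B1, the gene with the widest change of RNA, had a listed peak within the gene in every list, at 2.28 in yw females, 2.27 in yw males, 2.32 in the Mettl3 mutant, 3.89 in the Mettl14 mutant and 1.74 in the Hakai mutant. In yw males this peak was at chr2L:11848147-11848326 with an FDR of 0.055, so that at an FDR of at most 0.01 Mal-B1 had no peak within the gene in the yw male list, whereas in the other lists it lay against the gene's end, from chr2L:11848961 to 11849169 in yw females and the Mettl3 mutant. The yw peaks rest on an RNA level under 1 FPKM, and the depth of the IP libraries at this gene was not given in the sources used here.

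A peak of one list was taken as shared when it overlapped a peak of another, between their outer ends, by over 50% of the smaller one. Of the 13 yw male peaks of the members, 13 had a partner in the yw female list, 12 in the Mettl3 list, 10 in the Mettl14 list and 11 in the Hakai list, where 72.7%, 76.7%, 71.4% and 75.1% of all 20153 yw male peaks did. Outer ends can enclose introns, so the overlap was also taken over the blocks of the peaks, a rule added after these were seen. By blocks 12, 11, 11 and 10 of the 13 had a partner, beside 70.8%, 75.6%, 70.1% and 74.2% of all yw male peaks. The peak of Mal-B1 within the gene (2.27) then had no partner in any of the 4 lists, as in 3 of them it had overlapped only the gap between the blocks of a wide peak. The other peaks without a partner by blocks were that of Mal-A8 reaching into mtt in the Mettl3 list, that of Mal-A1 (fold enrichment 1.08) in the Mettl14 and Hakai lists, and that of Mal-A7 (3.09) in the Hakai list. By outer ends that of Mal-A7 had none in the Mettl14 list either, although its 3′ UTR held other peaks there and in the Hakai list.

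**Figure D5:**
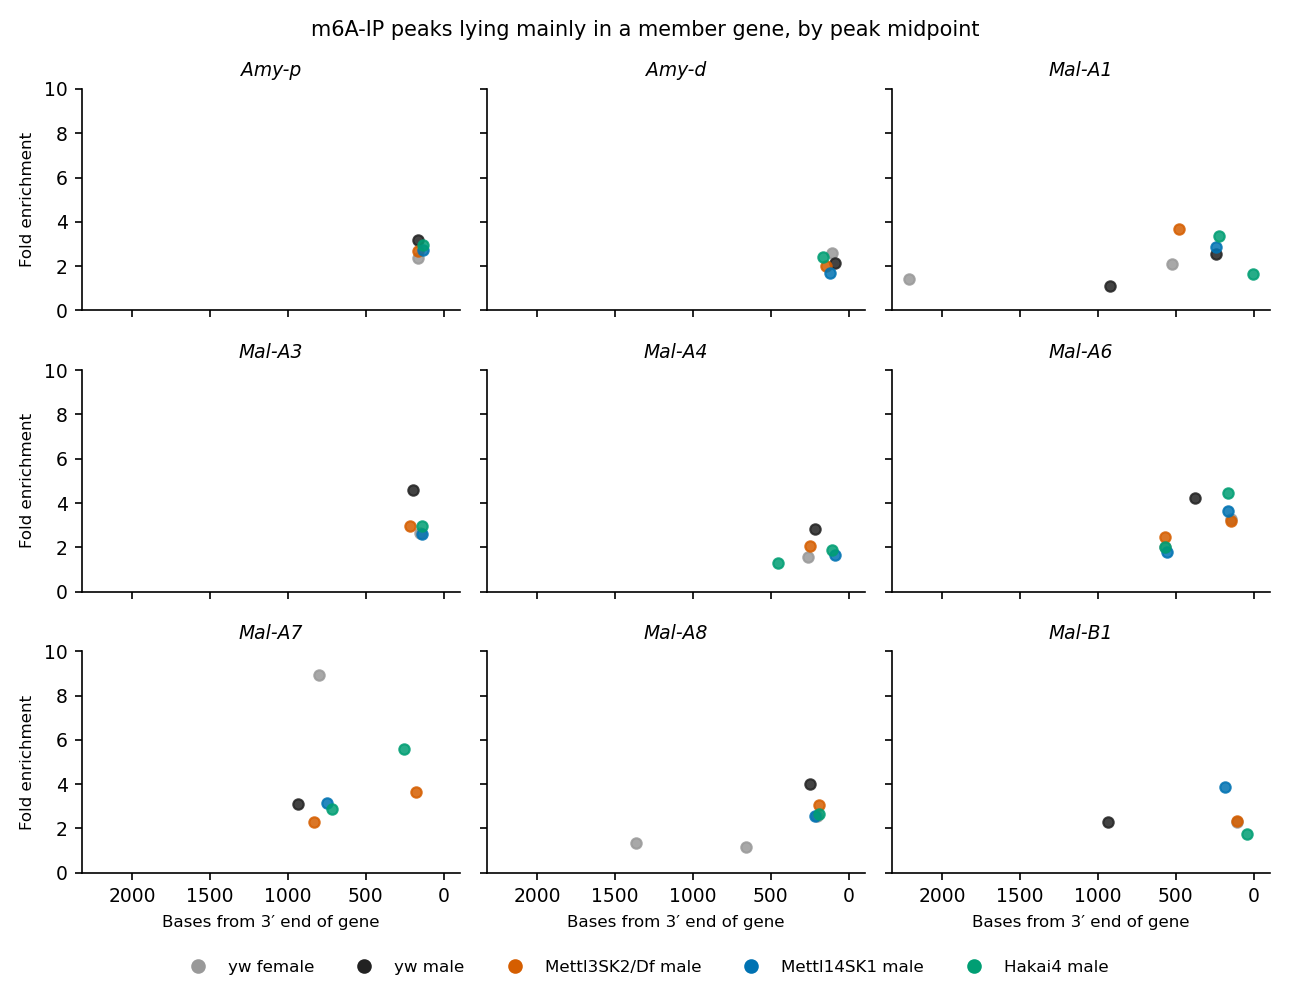
Fold enrichment of IP over input (y axis) of each peak with at least 50% of its bases inside the gene, against the distance of its midpoint from the gene's 3′ end in bases (x axis, the 3′ end at the right), for the 9 genes with a peak. Colours are the 5 lists; most points lie near the 3′ end, and the highest, 8.92, is Mal-A7 in yw females.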

How the data were processed

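Poly(A) RNA of whole flies was fragmented, and IP and input libraries were sequenced. For the deposited files the authors used fastp for trimming, HISAT2 for mapping, exomePeak to call peaks on both replicates of a group together, and ChIPseeker to annotate the peaks. Gene expression was deposited as FPKM, which the authors made with StringTie. The deposited peak lists give the fold enrichment of IP over input, a ratio, with the log10 of the p-value and FDR of the peak caller. Depth is unknown.

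Here log2(FPKM + 1) was fitted with limma 3.58.1 (R 4.3.3, empirical Bayes with trend) for genes with a mean of at least 1 FPKM, over 8 male input libraries or over 4 yw libraries, with Benjamini-Hochberg adjustment over all genes tested. On simulated data of a Mettl3 comparison the fit found 83 of 100 genes changed 2-fold, 100 of 100 changed 4-fold, and 8 of 12509 unchanged genes. Changes were planted only in genes of higher level than Mal-B1 in yw males, and noise was drawn independently for each library. These figures check that the fit runs properly and do not give its power or error rate for the members. Alternatives were another pseudocount, other filters, a replicate block, equal medians, no trend, each comparison alone, the summed amylases, stricter peaks, peak overlap by blocks (added later) and leaving out each library.

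All members are named in each comparison, together with up to 4 passing genes of each other list by size of change, Mal-A5, Mal-B2, Amyrel and tobi, genes within 20 kb that passed, and the 3 nearest profiles per class. The members and lists were chosen with earlier results of these data known. No sequences are shown.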

Additional observations from a re-analysis of the deposited data

How the results depend on the processing

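Mal-B1 kept its direction and its calls under every alternative fit and with each library left out, in the 3 comparisons with yw males and the 3 between mutants. Counts of members changed moved to 6 (Mettl3) and 1 (Hakai, and Hakai against Mettl14) when each comparison was fitted alone, and to 4 between the sexes at equal medians. The share of all tested genes that passed under each alternative is not given here. Whether the members moved more than other genes can therefore not be told from these counts. The replicate numbers were not taken as pairs, since deviations of same-numbered libraries correlated at 0.50 (yw and Mettl14), 0.46 (yw and Hakai) and 0.66 (Mettl14 and Hakai) but at 0.02 to 0.06 in pairs with Mettl3. With a replicate block the count was 4 in the Hakai mutant, with Amy-d (1.55, limma adjusted p = 0.030) and Mal-A6 (0.55, adjusted p = 0.026) gained, 1 between the sexes, with Mal-A8 lost (adjusted p = 0.068), and 4 for Hakai against Mettl14, with Mal-A2 and Mal-B1 joined by Amy-p (-1.23, adjusted p = 0.030) and Mal-A4 (-0.70, adjusted p = 0.044). It also gained Mal-A1 in the Mettl3 mutant (0.63, adjusted p = 0.039), Mal-A3 for Mettl14 against Mettl3 (0.60, adjusted p = 0.046) and Mal-A4 for Hakai against Mettl3 (-0.66, adjusted p = 0.035), and the amylase sum passed for Mettl14 against Mettl3 (1.25) and Hakai against Mettl14 (-1.24). With the amylases summed in place of Amy-d, the log2 fold change was -0.23 (Mettl3), -0.22 (Hakai) and 0.26 (females). At equal medians Mal-A3 (-0.033) and Mal-A6 (-0.029) turned in the Mettl14 mutant, and in females Amy-d (0.23), Mal-A1 (0.21), Mal-A6 (0.25), Mal-A7 (0.24) and Mal-A8 (0.0090) turned, while the amylase sum passed (0.63). At a fold enrichment of at least 5, member peaks numbered 3 (yw females), 1 (yw males), 0 (Mettl3), 0 (Mettl14) and 1 (Hakai). The 1 yw male peak had a partner in 1, 0, 0 and 0 of the yw female, Mettl3, Mettl14 and Hakai lists. That peak (5.79) was assigned to Mal-B1 but had 0% of its bases within the gene. Counting only peaks mainly within the member, 1, 0, 0, 0 and 1 remained in the same order of lists. The share of all peaks at this fold enrichment is not given here. The cause of these shifts was not tested.

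Leaving out each library in turn gave 1 to 2 members changed in the Mettl3 mutant, 1 to 2 in Mettl14, 1 to 3 in Hakai, 0 to 6 between the sexes, 1 to 3 for Mettl14 against Mettl3, 1 to 3 for Hakai against Mettl3 and 1 to 2 for Hakai against Mettl14. Where this left 1 library in a group, that library was assumed to vary like the others. The share of all tested genes that passed with each library left out is not given here either. The log2 fold change of Amy-p in Mettl14 ranged from -0.058 to 0.85, that of Mal-A3 in Mettl14 from -0.20 to 0.39, that of Mal-A4 in Hakai from -0.41 to 0.014 and that of Amy-d in females from -0.41 to 0.12. That of the amylase sum ranged from 0.49 to 1.56 in Mettl14, from -0.69 to 0.26 in Hakai, from 0.20 to 0.32 in females, from 0.72 to 1.79 for Mettl14 against Mettl3, from -0.46 to 0.48 for Hakai against Mettl3 and from -1.77 to -0.71 for Hakai against Mettl14.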
